A study of Homo sapiens with 12 samples.

Results

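HepG2, a human liver tumour cell line, carries 2 forms of beta-catenin: a full-length form and a shortened form that lacks the N-terminal segment through which the protein is marked for destruction. The arrays compared here measured RNA in cells given an siRNA against the full-length form. The comparison sets 3 arrays of cells given siRNA against the wild-type form (labelled sißCat-WT, here si-WT) against 3 arrays of cells given a control siRNA (siCtrl), 6 of the 12 arrays of the series, all taken at 120 h. The other 6 arrays came from cells given siRNA against the mutated form (sißCat-mut, here si-mut, 3 arrays) or against both forms (sißCat-both, here si-both, 3 arrays), and they enter below where a second background or the spread of the measurements is needed. All 14884 named genes of the array were followed, each by the probe set with the highest mean level over the 12 arrays.

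Beta-catenin has a place in 2 cellular systems. At the plasma membrane it ties cadherins to the actin cytoskeleton through alpha-catenin. In the nucleus it acts with TCF and LEF factors as the transcriptional arm of the Wnt pathway, which in the liver governs the zonation of metabolism across the lobule. The shortened form escapes destruction and so keeps the nuclear arm running, while the full-length form answers to the destruction complex.

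The gene that encodes beta-catenin was not analysed here, so the group labels could not be checked against the level of the siRNA target. The groups received different siRNAs, the labels give no second siRNA per target, and the arrays read RNA and not protein. Whether the 3 samples of a group were grown separately is not given in the labels. The p-values therefore rest on the scatter of these arrays, part or all of which could be technical. Replicate arrays correlated at 0.9938 to 0.9969 within the 4 groups, and no array pair was identical. The 9 hepatocyte marker genes tested had mean log2 intensities of 11.35 to 11.55 on the si-WT arrays and 11.62 to 11.69 on the siCtrl arrays, far above the array medians of 4.71 to 4.78. Markers of other cell types lay lower. Those of endothelial cells (12 genes) ranged from 4.81 to 4.9 on the si-WT arrays and from 4.67 to 4.71 on the siCtrl arrays, and those of fibroblasts and stellate cells (6 genes) from 4.41 to 4.42 on the si-WT arrays and from 4.35 to 4.54 on the siCtrl arrays. Markers of blood cells (7 genes) ranged from 7.14 to 7.16 on the si-WT arrays and from 6.92 to 6.98 on the siCtrl arrays. Those of bile duct cells (8 genes) were the highest of these, from 8.66 to 8.77 on the si-WT arrays and from 8.71 to 8.81 on the siCtrl arrays.

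After si-WT many genes changed by small amounts, in both directions. In limma's moderated test with Benjamini-Hochberg adjustment over all genes, 1513 genes passed an adjusted p of 0.05, which is 10.2% of those tested. Of these, 774 genes (5.2%) were higher after si-WT and 739 (4.97%) were lower. The median size of a called change was 0.43 on the log2 scale, with quartiles of 0.34 and 0.59, and 37 genes rose and 42 fell by at least 2-fold. The median change over all genes was 0.01. The 3 si-WT and the 3 siCtrl arrays did not overlap for 1511 of the 1513 called genes, and they did not overlap for 4510 (30.3%) of all genes tested. Calls were unevenly spread over the range of expression, from 0.806% in the dimmest of 10 equal bins of mean level to 23.4% in the brightest, so a gene near the floor of the array had less chance to be called. Leaving out si-WT replicate 2, si-WT replicate 3 or siCtrl replicate 2 lowered the calls to 917, 957 and 950, and 386 of the 739 lower calls and 359 of the 774 higher calls held whichever of the 6 arrays was left out.

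**Figure D1:**
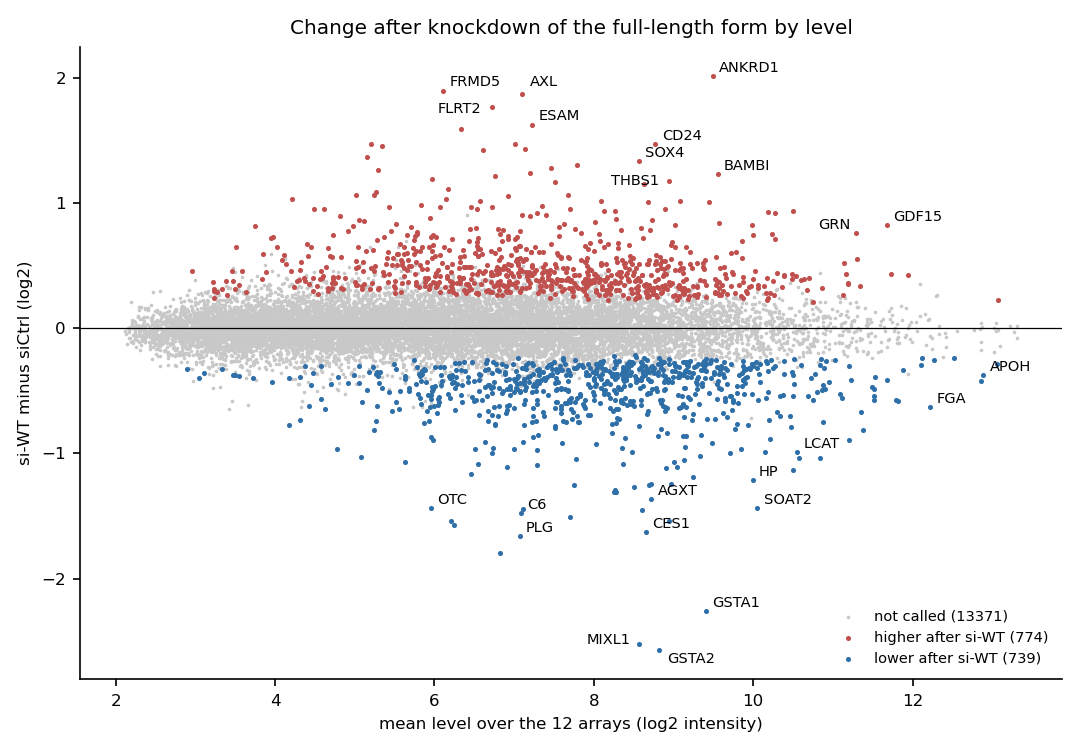
Each point is 1 of the 14884 genes, placed by its mean log2 intensity over the 12 arrays (x axis) and by its log2 difference si-WT minus siCtrl (y axis). The 774 genes called higher are red, the 739 called lower are blue and the rest are grey; GSTA2, MIXL1 and GSTA1 lie lowest and ANKRD1 highest among the labelled genes.

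Genes of differentiated liver function were well represented among those that fell, and in the detoxification list 2 glutathione transferases fell by more than 2 log2 units. The gene lists counted here and below were written with earlier results of these data known, so their counts are descriptions. Over all genes 5.2% were called higher and 4.97% lower. Of 20 phase I and II drug metabolism genes tested (62 listed, the others not analysed here), 9 fell and 0 rose, with a median change of -0.26. GSTA1 and GSTA2 encode alpha-class glutathione transferases, which couple glutathione to electrophiles and lipid peroxidation products. GSTA1 stood at 6.28, 5.83 and 5.69 log2 units on the si-WT arrays, against 8.18, 8.33 and 8.07 on the siCtrl arrays. All 3 si-WT arrays lay well below every siCtrl array. The difference was -2.26 ± 0.17 (SE, n = 3 each, limma adjusted p = 7.67e-06), so that the siCtrl level was 4.79-fold that after si-WT. GSTA2 read 5.69, 4.42 and 4.69 on the si-WT arrays and 7.48, 7.58 and 7.47 on the siCtrl arrays, a difference of -2.57 ± 0.23 (adjusted p = 1.51e-05). The 2 genes are neighbours on chromosome 6 and near-identical copies, and a probe set of one may read the other, so their separate values are uncertain.

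The promoters show how close the copies are. The 250 bases before the start of each gene (RefSeq, GRCh38.p14, both on the minus strand) are identical at 243 positions (97.2%), and capitals mark the 7 that differ. GSTA1 lies at chr6:52803817-52804066 and GSTA2 at chr6:52763476-52763725.
GSTA1: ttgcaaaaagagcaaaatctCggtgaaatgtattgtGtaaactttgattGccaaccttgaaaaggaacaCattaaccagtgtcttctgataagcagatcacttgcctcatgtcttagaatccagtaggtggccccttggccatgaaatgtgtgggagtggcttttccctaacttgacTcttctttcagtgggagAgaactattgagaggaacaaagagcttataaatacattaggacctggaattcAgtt
GSTA2: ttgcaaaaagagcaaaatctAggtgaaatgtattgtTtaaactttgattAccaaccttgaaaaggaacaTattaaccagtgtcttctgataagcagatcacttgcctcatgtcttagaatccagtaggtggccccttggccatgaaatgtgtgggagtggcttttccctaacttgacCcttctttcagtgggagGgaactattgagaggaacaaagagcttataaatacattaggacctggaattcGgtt

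Esterases and oxidising enzymes fell beside the transferases. CES1, the main liver carboxylesterase, which cleaves ester drugs and lipids, had 7.27, 6.76 and 6.88 log2 units after si-WT and 8.62, 8.63 and 8.54 after siCtrl. The siCtrl arrays agreed closely and the si-WT arrays all lay over a log2 unit below them (-1.63 ± 0.15, adjusted p = 2.02e-05). ADH6, an alcohol dehydrogenase, fell by 1.27 (adjusted p = 9.81e-05), and AADAC, an esterase of the endoplasmic reticulum, by 1.07 (adjusted p = 2.66e-04). TPMT, which methylates thiopurine drugs, fell by 0.92 with an SE of 0.08 (adjusted p = 1.48e-05). MAOB, the mitochondrial monoamine oxidase, fell by 1.45, and DDC, which makes dopamine and serotonin from their amino acid precursors, by 1.31. CYB5A, the electron donor of many microsomal oxidations, was bright (11.31, 11.07 and 11.02 after si-WT, 11.79, 11.70 and 11.66 after siCtrl) and fell by 0.58 (adjusted p = 5.10e-04).

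Some antioxidant genes fell as well. Of 27 NRF2 and glutathione genes tested, 8 fell and 0 rose (median -0.18). GPX2, a glutathione peroxidase of epithelia, read 8.57, 8.40 and 8.32 after si-WT, against 9.43, 9.54 and 9.59 after siCtrl, and fell by 1.08 (SE 0.11, adjusted p = 4.22e-05). GSR, which regenerates reduced glutathione, fell by 0.48, CAT, the peroxisomal catalase, by 0.39 and GPX3, the plasma glutathione peroxidase, by 0.45. NFE2L2, which encodes NRF2 itself, fell by 0.40 with an SE of 0.07 (adjusted p = 1.55e-03). HMOX1, haem oxygenase, fell by 0.57 (adjusted p = 1.31e-02), a call that 3 of the 6 settings that leave out 1 of its arrays kept.

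Several lists of secreted plasma proteins held lower calls. The list of serpins and protease inhibitors, few of which were tested, went the other way. It held 2 higher and 0 lower calls, and 0 higher calls without si-WT replicate 3. Of 17 coagulation and fibrinolysis genes tested, 8 fell and 0 rose (median -0.13), of 14 complement genes 7 fell and 0 rose (median -0.34), and of 22 plasma carrier and binding proteins 9 fell and 2 rose (median -0.21). PLG, plasminogen, the precursor of the clot-dissolving protease, read 5.54, 4.77 and 5.19 after si-WT, against 6.75, 6.65 and 7.07 after siCtrl (-1.66 ± 0.19, adjusted p = 1.39e-04). The groups were apart on every array. PLGLA, a plasminogen-like copy, fell by 1.80, and the 2 cannot be taken as independent. F11, the coagulation factor XI gene, had 7.57, 7.29 and 7.49 after si-WT and 8.65, 8.67 and 8.78 after siCtrl (-1.24 ± 0.10, adjusted p = 1.11e-05). CPB2, whose product slows clot lysis, fell by 0.79. The 3 fibrinogen chains are among the brightest genes of these cells: FGA fell by 0.63, FGG by 0.67 and FGB by 0.41, and their siCtrl arrays all read above 11 log2 units. Leaving out si-WT replicate 2 left 5 lower calls in the coagulation list. F7 fell by 0.45 (adjusted p = 3.88e-02), and none of the 6 settings that leave out 1 of its arrays kept that call.

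Among complement genes, C6, a component of the membrane attack complex, showed the largest fall of those named. It stood at 5.16, 5.01 and 5.42 after si-WT, against 6.60, 6.84 and 6.58 after siCtrl (-1.48 ± 0.12, adjusted p = 1.14e-05). C2 fell by 0.43 and VTN, vitronectin, which also binds integrins, by 0.57. C4A and C4B fell by 0.58 and 0.57, and as near-identical copies they count as 1 observation. HP, haptoglobin, which captures free haemoglobin, read 9.36, 8.58 and 8.67 after si-WT and 10.24, 9.91 and 10.09 after siCtrl. si-WT replicate 1 was the nearest to the siCtrl arrays, as it was for several liver genes, and the groups still did not overlap (-1.21 ± 0.16, adjusted p = 2.99e-04). A related haptoglobin copy may share its signal. CP, ceruloplasmin, the copper-carrying ferroxidase, fell by 1.05, ITIH3 by 0.73 and AHSG, fetuin A, by 0.42.

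The fall did not take in every secreted liver protein. ALB, albumin, averaged 13.04 ± 0.02 log2 units after si-WT and 13.07 ± 0.06 after siCtrl, SD over 3 arrays each (-0.03 ± 0.07, adjusted p = 0.851). AFP, the fetal counterpart of albumin, differed by -0.17 ± 0.07 (adjusted p = 0.18), and APOA1, the main protein of high-density lipoprotein, by 0.00 ± 0.08 (adjusted p = 0.996). The groups of ALB and APOA1 overlapped. HPX, haemopexin, which carries free haem, moved against its list: it rose by 0.60 (SE 0.11, adjusted p = 2.66e-03). Of the 9 hepatocyte identity markers tested, AHSG and FGB fell and 7 were not called. The list of gluconeogenesis, glycogen and insulin-regulated genes held calls in both directions, as did that of bile acid synthesis and transport.

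**Figure D2:**
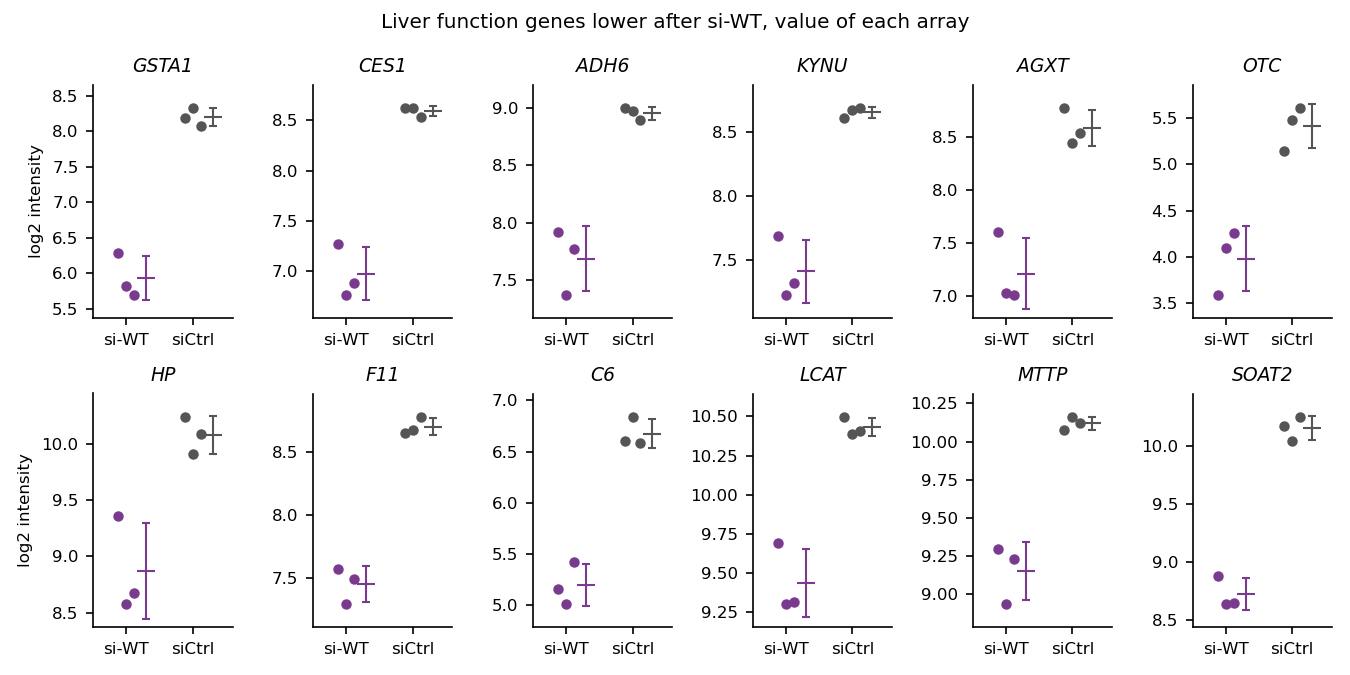
Log2 intensity (y axis) of 12 liver function genes on the 3 si-WT arrays (purple, left) and the 3 siCtrl arrays (grey, right), with the group mean and SD beside the points. Every panel has its own range; in each of them the si-WT arrays lie below all siCtrl arrays, with differences of -0.97 for MTTP to -2.26 for GSTA1.

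Lipoprotein and lipid genes fell at several steps. Of 16 apolipoprotein and lipoprotein genes tested, 5 fell and 0 rose (median -0.07). MTTP, which loads lipid onto apolipoprotein B, read 9.29, 8.94 and 9.23 after si-WT, against 10.08, 10.16 and 10.12 after siCtrl (-0.97 ± 0.09, adjusted p = 2.02e-05). LCAT, which esterifies cholesterol in plasma lipoproteins, fell by 0.99 (SE 0.10), APOM by 0.88 and APOC3 by 0.75. SOAT2, which esterifies cholesterol inside the hepatocyte, had 8.88, 8.63 and 8.64 after si-WT and 10.17, 10.04 and 10.25 after siCtrl. Its groups lay more than a log2 unit apart on every array (-1.44 ± 0.09, adjusted p = 5.30e-06). Of 19 cholesterol synthesis and uptake genes tested 6 fell and 0 rose (median -0.19), among them EBP (-0.60), ACAT2 (-0.56), HSD17B7 (-0.49) and SQLE (-0.30). That count ranged from 2 (without si-WT replicate 3) to 4 when 1 of the 6 arrays was left out. CIDEC, a lipid droplet protein, fell by 1.11 and DGAT1, which makes triglyceride, by 0.54, while PNPLA2, the triglyceride lipase, rose by 0.26 (adjusted p = 3.96e-02, kept in 1 of 6 settings that leave out an array).

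Some genes of fatty acid oxidation fell. Of 20 genes tested 9 fell and 1 rose (median -0.25), with 5 (without si-WT replicate 3) to 7 lower calls when 1 array was left out. PPARA, the nuclear receptor that drives this pathway in liver, read 7.16, 6.98 and 7.02 after si-WT and 7.69, 7.78 and 7.48 after siCtrl (-0.60 ± 0.10, adjusted p = 1.74e-03). It was the 1 lower call among 19 hepatocyte transcription factors and nuclear receptors tested, beside TBX3, which rose by 0.52. The peroxisomal enzymes ACAA1 and HSD17B4 fell by 0.56 and 0.52, PEX11A, which divides peroxisomes, by 0.57 and ACOT2, a mitochondrial thioesterase, by 0.65. CROT, the peroxisomal carnitine octanoyltransferase, went the other way (+0.58 ± 0.08, adjusted p = 4.56e-04).

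Genes of amino acid breakdown fell in part. Of 39 amino acid and urea cycle genes tested 13 fell and 0 rose, and 33 of the 39 differences were negative (median -0.24). Over all genes 7236 of 14884 differences were negative. OTC, the mitochondrial urea cycle enzyme that makes citrulline, was dim and read 3.59, 4.09 and 4.26 after si-WT, against 5.15, 5.48 and 5.61 after siCtrl (-1.44 ± 0.19, adjusted p = 3.28e-04). AGXT, which removes glyoxylate in peroxisomes, had 7.60, 7.03 and 7.01 after si-WT and 8.77, 8.44 and 8.53 after siCtrl (-1.37 ± 0.14, adjusted p = 6.50e-05). KYNU, an enzyme of tryptophan breakdown, fell by 1.24 with an SE of 0.11 (adjusted p = 1.48e-05), HAL, which starts histidine breakdown, by 0.87, BHMT, which remethylates homocysteine, by 0.78 and PRODH2, of hydroxyproline breakdown, by 0.78. In the serine synthesis route, PHGDH fell by 0.52 and PSPH by 0.28, 2 of the 3 lower calls among 38 ATF4, unfolded protein and tRNA synthetase genes, of which SESN2, AARS1 and ATF6 rose.

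Metal handling genes moved in both directions, and the hypoxia response held a further large fall. The metal handling list had as many positive as negative differences, and its largest change was the rise of CYBRD1. TFR2, the iron-sensing transferrin receptor of hepatocytes, fell by 0.99 (adjusted p = 1.25e-04) and MT1F, a metallothionein, by 0.81, while CYBRD1, a ferric reductase, rose by 1.07. EPO, erythropoietin, the hypoxia-induced hormone that HepG2 cells make, read 8.13, 7.55 and 7.68 after si-WT, against 8.93, 8.92 and 8.84 after siCtrl (-1.11 ± 0.13, adjusted p = 1.62e-04). Of 23 glycolysis and hypoxia genes tested 5 fell and 0 rose (median -0.18), NDRG1 by 0.61, PGK1 by 0.40 and VEGFA by 0.34. Leaving out 1 of the 6 arrays gave 2 (without si-WT replicate 2) to 6 lower calls.

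Some genes that YAP and TEAD are known to drive rose, and they included ANKRD1, the gene with the largest increase named here. YAP is a co-activator that enters the nucleus of spread, uncrowded cells and acts through TEAD factors. Of 20 such targets and TEAD genes tested (31 listed, the others not analysed here) 7 rose and 1 fell (median 0.19). ANKRD1, an ankyrin repeat protein and a standard YAP readout, had 10.39, 10.53 and 10.70 after si-WT, against 8.24, 8.47 and 8.86 after siCtrl. The arrays of the groups stood more than a log2 unit apart (+2.02 ± 0.16, 4.05-fold, adjusted p = 1.14e-05). AXL, a receptor tyrosine kinase, read 8.30, 8.63 and 8.91 after si-WT and 6.58, 6.85 and 6.79 after siCtrl (+1.87 ± 0.14, adjusted p = 9.03e-06). THBS1, thrombospondin 1, a matrix protein that activates latent TGF-beta, read 10.17, 10.25 and 10.37 after si-WT and 8.97, 9.02 and 9.26 after siCtrl (+1.18 ± 0.10, adjusted p = 1.48e-05). EDN1, endothelin 1, rose by 0.58, CCN2, a matricellular protein, by 0.44 and AJUBA, a LIM protein of junctions, by 0.37. The factors themselves differed in direction: TEAD1 rose by 0.52 with an SE of 0.07, TEAD4 fell by 0.63 with an SE of 0.10, and TEAD2, chosen after its values were seen, rose by 0.66. WWTR1, the YAP relative TAZ, was not called (-0.08 ± 0.13, adjusted p = 0.809). CCN2 kept its call in 2 of the 6 settings that leave out 1 array.

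Promoters of ANKRD1 and THBS1 hold the TEAD hexamer GGAATG, which is why they are shown. The 200 bases before each start are given 5′ to 3′ along the gene (RefSeq, GRCh38.p14), with the hexamer in capitals: ANKRD1 at chr10:90921088-90921287, minus strand, hexamer from position -128, and THBS1 at chr15:39580879-39581078, plus strand, hexamer from position -46.
ANKRD1: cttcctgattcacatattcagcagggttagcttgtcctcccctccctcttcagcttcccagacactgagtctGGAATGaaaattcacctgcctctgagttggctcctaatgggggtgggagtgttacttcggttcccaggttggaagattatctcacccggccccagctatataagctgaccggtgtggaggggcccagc
THBS1: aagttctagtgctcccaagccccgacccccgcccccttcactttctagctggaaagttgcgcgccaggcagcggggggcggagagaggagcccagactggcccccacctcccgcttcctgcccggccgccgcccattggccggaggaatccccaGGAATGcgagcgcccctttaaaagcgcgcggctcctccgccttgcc

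Junction and keratin lists held more higher than lower calls. Of 20 desmosome and keratin genes tested 6 rose and 0 fell (median 0.07). DSC2, a desmosomal cadherin, read 9.42, 9.45 and 9.44 after si-WT and 8.89, 8.74 and 8.62 after siCtrl, with a much tighter si-WT group (+0.69 ± 0.09, adjusted p = 2.27e-04). KRT23 rose by 0.92, KRT80 by 0.59, KRT19, a keratin of bile ducts and progenitors, by 0.52 and PPL, periplakin, by 0.48. JUP, plakoglobin, the closest relative of beta-catenin and able to take its place at cadherins, fell: 8.78, 8.87 and 8.65 after si-WT, against 9.08, 9.14 and 9.18 after siCtrl (-0.37 ± 0.08, adjusted p = 8.44e-03). It was the 1 lower call of 10 adherens junction genes tested (34 listed, the others not analysed here). CDH1, CTNNA1 and CTNND1, which encode E-cadherin and 2 other catenins, were not analysed here. ESAM, an adhesion molecule of endothelial and some epithelial junctions, read 8.43, 8.43 and 9.21 after si-WT, against 6.90, 7.05 and 7.23 after siCtrl, with si-WT replicate 3 the highest (+1.63 ± 0.18, adjusted p = 1.09e-04). It was the 1 call among the 12 endothelial markers, 7 of which lay below the median probe set level in both groups. Of 33 tight and gap junction and polarity genes tested 6 rose (3 without si-WT replicate 2) and 2 fell (median 0.07). CLDN1 rose by 0.56 and JAM3 by 0.53, whereas CLDN4 fell by 0.66, each a component of tight junctions.

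Actin regulators split. Of 47 tested 9 rose (5 without siCtrl replicate 1) and 6 fell (median 0.09). FRMD5, a FERM-domain protein of cell junctions, had 8.0, 8.27 and 8.38 after si-WT, against 6.0, 6.35 and 6.61 after siCtrl, groups more than a log2 unit apart (+1.90 ± 0.14, adjusted p = 8.33e-06). ENAH, which extends actin filaments, rose by 0.80 and DOCK4, a Rac activator, by 1.15. VIL1, villin, the bundler of microvilli, fell by 0.51, PDLIM2 by 0.74 and MYO10, the filopodial myosin, by 0.55. VCL, vinculin, and TPM1, tropomyosin, both targets of the serum response factor, rose by 0.47 and 0.49. Of 18 serum response factor targets tested 3 rose and 1 fell.

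Matrix and surface glycan genes changed as well. Of 32 extracellular matrix genes tested 8 rose (4 without siCtrl replicate 2) and 3 fell (median 0.12): FBN1, fibrillin, rose by 0.67, HSPG2, perlecan, by 0.65 and VCAN, versican, by 0.57, while LOX, which cross-links collagen, fell by 1.02. Of 43 glycosaminoglycan enzymes 8 rose and 3 fell (median 0.07). CSGALNACT2, which starts chondroitin sulfate chains, read 7.92, 8.02 and 8.32 after si-WT and 6.59, 6.64 and 6.62 after siCtrl (+1.47 ± 0.10, adjusted p = 5.30e-06). CHST3 rose by 0.68, CHST15 fell by 0.73 and SULF2, which removes sulfate from heparan sulfate, fell by 0.56. GPC6, a cell surface heparan sulfate proteoglycan, was bright and rose to 10.50, 10.52 and 10.60 after si-WT, against 9.57, 9.58 and 9.67 after siCtrl (+0.93 ± 0.07, adjusted p = 1.11e-05).

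Some guidance and adhesion molecules better known from the nervous system also moved. Of 53 tested 9 rose (17%) and 3 fell (5.66%), against 5.2% and 4.97% of all genes. The median was 0.03, and 1 lower call was left without si-WT replicate 2. FLRT2, a leucine-rich repeat adhesion protein, read 7.40, 7.81 and 7.72 after si-WT and 5.60, 5.96 and 6.07 after siCtrl (+1.77 ± 0.16, adjusted p = 1.48e-05). L1CAM, a neural cell adhesion molecule often seen in tumour invasion, rose by 1.09 and PLXNC1, a semaphorin receptor, by 0.94. EPHA1, an ephrin receptor of epithelia, fell by 1.04.

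**Figure D3:**
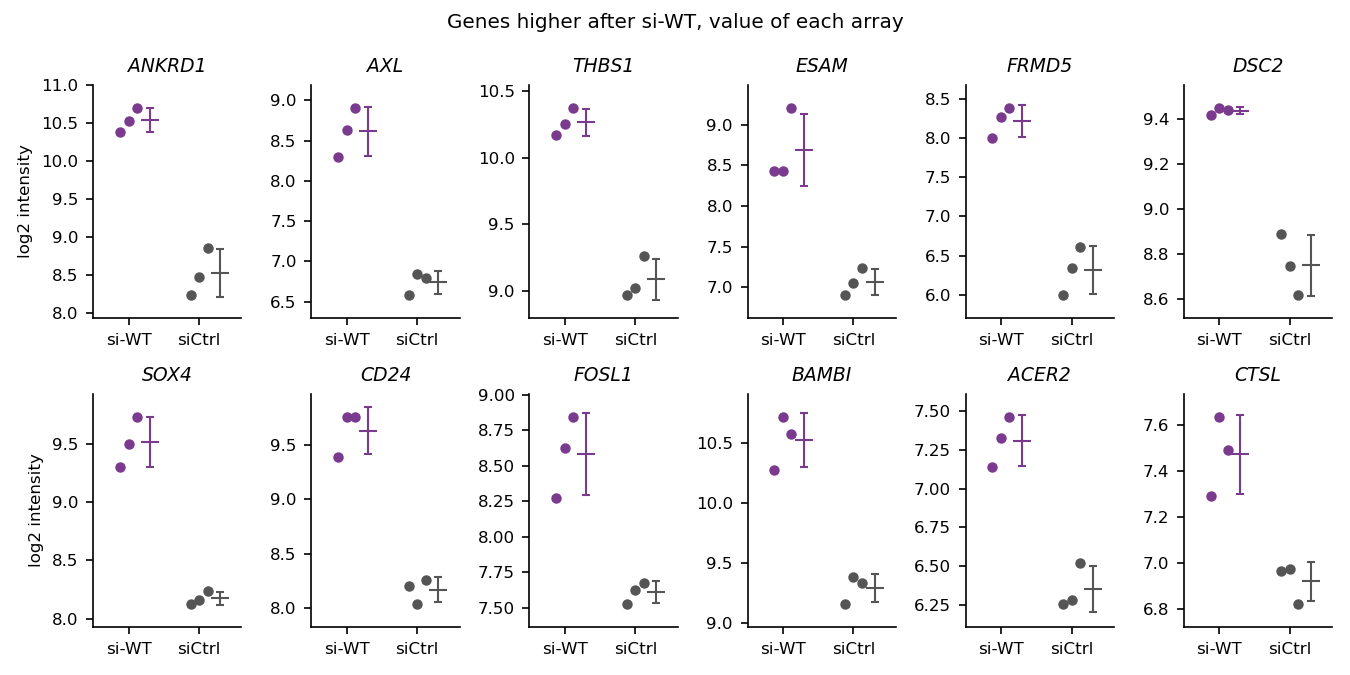
Log2 intensity (y axis) of 12 genes on the 3 si-WT arrays (purple, left) and the 3 siCtrl arrays (grey, right), with the group mean and SD beside the points. Every panel has its own range; the si-WT arrays lie above all siCtrl arrays in each, by 0.55 log2 units for CTSL to 2.02 for ANKRD1.

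Some output genes of the ERK cascade and early response genes rose. Of 32 tested 12 rose, 0 fell and 20 were not called, 13 of the 32 differences were negative, and the median was 0.09. Among those not called were the early response genes EGR1 (-0.41, adjusted p = 0.464) and FOS (-0.01, adjusted p = 0.978) and the ERK-induced factor ETV4 (-0.32, adjusted p = 0.241), named after their values were seen. FOSL1, an AP-1 subunit, read 8.28, 8.63 and 8.85 after si-WT, against 7.53, 7.62 and 7.68 after siCtrl (+0.97 ± 0.17, adjusted p = 2.14e-03). LIF, an interleukin-6 family cytokine, rose by 0.71, IER3 by 0.69, JUN and JUNB, AP-1 subunits, by 0.66 and 0.63 and TRIB1 by 0.52. UCA1, a long non-coding RNA of tumour cells, rose by 1.59 with a wide spread (SE 0.27). DUSP phosphatases oppose ERK and related kinases, and their values were chosen after they were seen. DUSP5 rose by 1.37 and DUSP1 by 0.95 (adjusted p = 7.57e-04). DUSP6 differed by -0.03 (adjusted p = 0.954), DUSP4 by 0.12 (adjusted p = 0.571), DUSP2 by -0.05 (adjusted p = 0.843) and DUSP7 by -0.07 (adjusted p = 0.806). Among 56 receptor tyrosine kinases and ligands 6 rose (10.7%) and 4 fell (7.14%), against 5.2% and 4.97% of all genes. Without si-WT replicate 2 there were 0 lower calls. EREG, epiregulin, a ligand of EGFR, rose by 0.81, KITLG by 0.67, EGFR itself by 0.54 and FGFR3 by 0.53, and FGFR2 fell by 0.43.

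Some TGF-beta family genes rose, several of them inhibitors of the pathway. Of 33 tested 8 rose and 0 fell (median 0.12). BAMBI, a decoy receptor that blocks TGF-beta signalling, had 10.27, 10.72 and 10.58 after si-WT and 9.15, 9.38 and 9.33 after siCtrl (+1.23 ± 0.14, adjusted p = 1.39e-04). SKIL, a repressor of SMAD complexes, rose by 0.90, SMAD7, the inhibitory SMAD, by 0.65, TGIF1, a SMAD co-repressor, by 0.60 and FSTL3, which binds activin, by 0.56. GDF15, a secreted stress factor of the family, rose to 12.18, 12.37 and 12.55 after si-WT, against 11.63, 11.49 and 11.50 after siCtrl (+0.83 ± 0.10). JAG1, a Notch ligand, rose by 0.76.

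Markers of immature liver cells changed in both directions. Of 24 endoderm and progenitor factors tested 3 rose (12.5%) and 2 fell (8.33%), against 5.2% and 4.97% of all genes. SOX4, a transcription factor of progenitor states, read 9.30, 9.50 and 9.73 after si-WT, against 8.13, 8.16 and 8.24 after siCtrl (+1.34 ± 0.10, adjusted p = 7.58e-06). CD24, a surface marker of progenitors, had 9.39, 9.76 and 9.76 after si-WT and 8.21, 8.04 and 8.26 after siCtrl (+1.47 ± 0.14, adjusted p = 3.80e-05). Both genes had clearly separate groups. MIXL1, a homeobox factor of mesendoderm, went steeply the other way: 7.55, 7.14 and 7.50 after si-WT and 9.57, 10.09 and 10.11 after siCtrl (-2.52 ± 0.17, adjusted p = 5.30e-06). EPCAM fell by 0.25. SNAI2, a repressor of epithelial genes, fell by 0.80 while S100A4 rose by 0.57 and FN1, fibronectin, by 0.22. The 24 epithelial-mesenchymal transition genes held 4 higher and 3 lower calls (1 lower without siCtrl replicate 3).

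A part of the p53 targets rose. Of 25 tested 11 rose and 1 fell, 21 of the 25 differences were positive, and the median was 0.29. The list has 43 genes, and the others were not analysed here. CDKN1A, a p53 target, was not analysed either. ACER2, an alkaline ceramidase of the Golgi, had 7.14, 7.33 and 7.46 after si-WT and 6.26, 6.28 and 6.53 after siCtrl (+0.95 ± 0.12, adjusted p = 2.93e-04). SESN2, which restrains growth signalling, rose by 0.57, TIGAR, which diverts glucose from glycolysis, by 0.46, EDA2R by 0.44 and BBC3, the death protein PUMA, by 0.38. CCNG1 fell by 0.26. Leaving out si-WT replicate 3 left 7 higher calls, and leaving out si-WT replicate 2 left 0 lower calls. Among 25 apoptosis regulators both protective and deadly members rose: MCL1 by 0.59 and BCL2L1 by 0.43, beside BBC3, with BOK lower by 0.86.

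Some lysosomal genes rose. Of 43 lysosome and autophagy genes tested 11 rose, 0 fell and 32 were not called, and 14 differences were negative (median 0.10). Leaving out 1 of the 6 arrays gave 7 (without si-WT replicate 3) to 12 higher calls. A fit of the si-WT and siCtrl arrays alone gave 1 lower call. CTSV, a cysteine cathepsin, read 6.15, 6.25 and 5.89 after si-WT and 4.87, 4.84 and 4.78 after siCtrl (+1.26 ± 0.13, adjusted p = 5.00e-05). CTSL, cathepsin L, rose by 0.55, CTSA, which protects lysosomal sialidase, by 0.43, NEU1, that sialidase, by 0.39 and PPT1 by 0.39. GRN, progranulin, which lysosomes process, was bright and rose to 11.57, 11.69 and 11.65 after si-WT, against 10.83, 10.87 and 10.93 after siCtrl (+0.76 ± 0.07, adjusted p = 1.68e-05). IDS, a lysosomal sulfatase, rose by 0.74. In sphingolipid metabolism ASAH2, the neutral ceramidase, fell by 1.54 while ACER2 rose, and CERS6, a ceramide synthase, fell by 0.74 while CERS5 rose by 0.37.

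**Figure D4:**
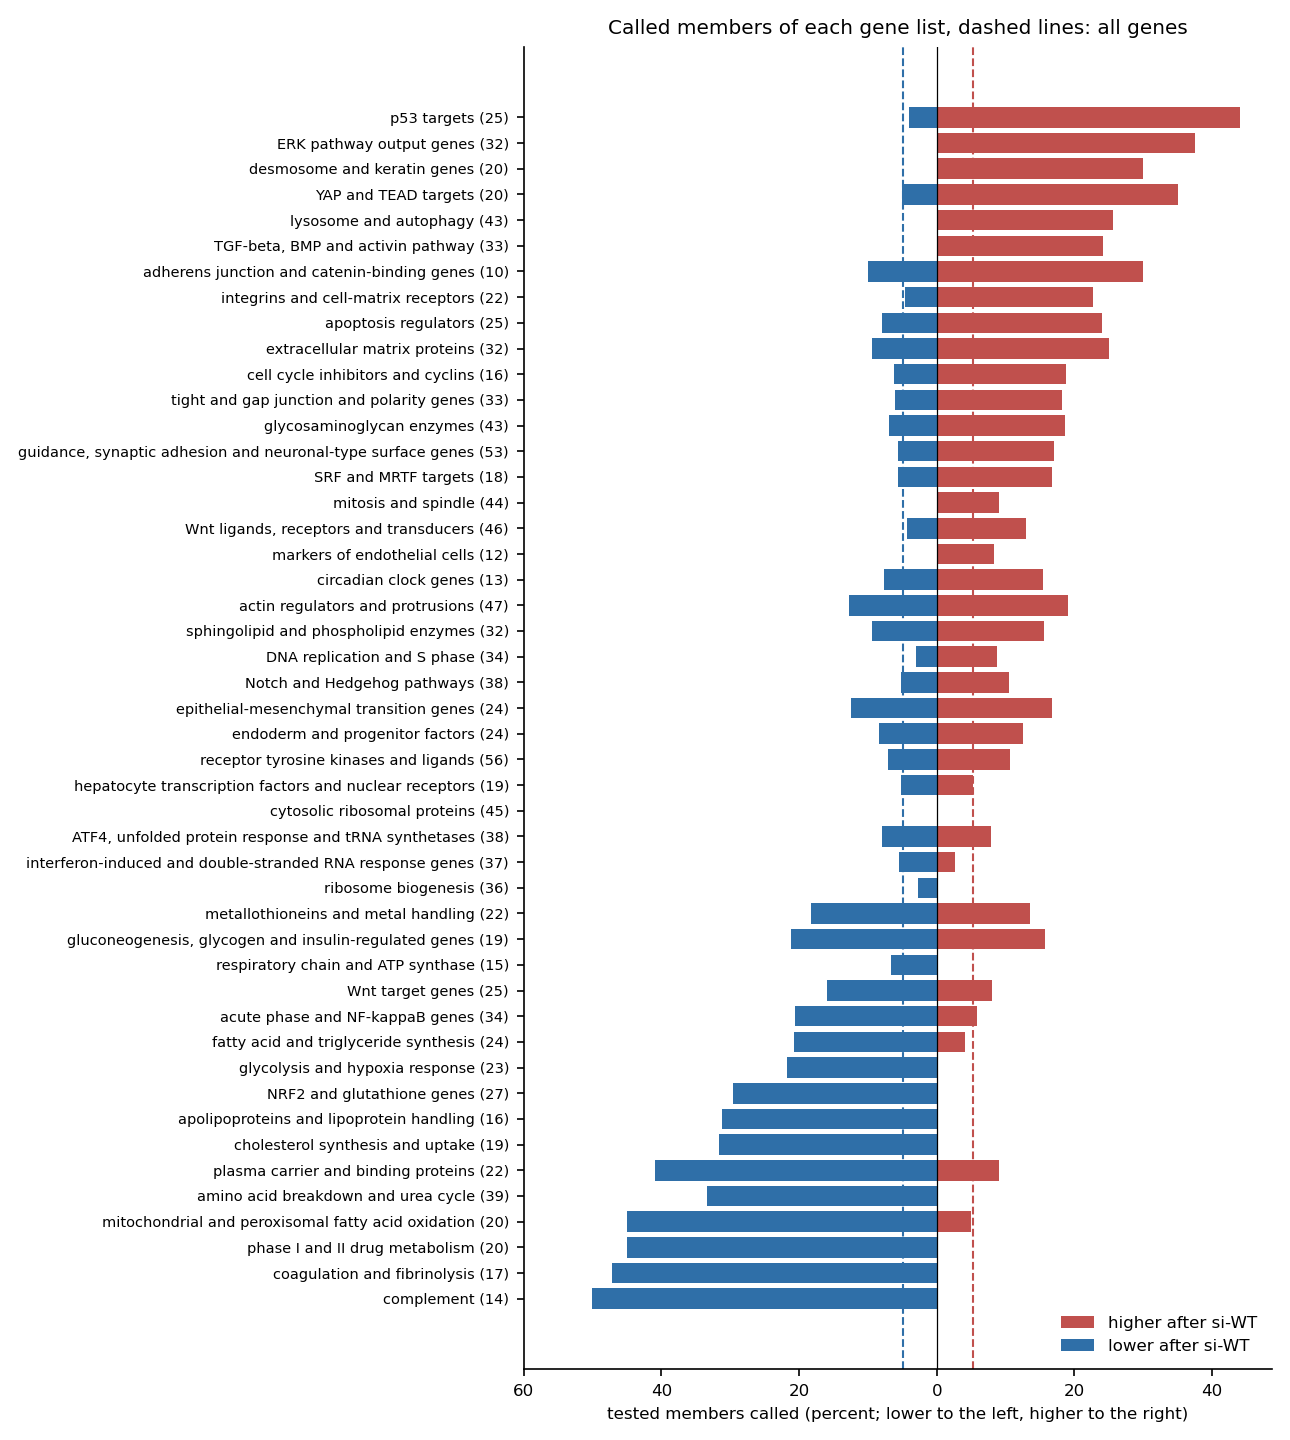
Percent of the tested members of each gene list (number tested in brackets) called higher after si-WT (red, to the right) or lower (blue, to the left), with lists of at least 10 tested genes ordered by the difference of the shares. Dashed lines mark the 5.2% of all genes called higher and the 4.97% called lower. Complement (50% lower) lies at the bottom and p53 targets (44% higher) at the top. The lines are not matched for level: of 1489 genes in the brightest of 10 bins 136 were called higher and 213 lower.

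Wnt target genes moved in both directions after si-WT. Of 25 tested 2 rose (8%) and 4 fell (16%), against 5.2% and 4.97% of all genes, and the median was 0.03. The 4 that fell were APCDD1, DKK4, AXIN1 and GLUL. AXIN1 is a part of the destruction complex and is also counted among the transducers below, so the 16% overstates the share of targets. LGR5, the R-spondin receptor and a leading Wnt target, read 11.38, 11.40 and 11.34 after si-WT, against 11.33, 11.41 and 11.49 after siCtrl, and the groups overlapped (-0.03 ± 0.43, adjusted p = 0.98). MYC read 9.35, 9.29 and 9.41 after si-WT and 9.39, 9.31 and 9.33 after siCtrl (0.01 ± 0.11, adjusted p = 0.987). The feedback genes AXIN2, NKD1 and NOTUM lay higher after si-WT without passing the test. AXIN2, a scaffold of the destruction complex, had 10.05, 10.10 and 9.97 after si-WT and 9.68, 9.50 and 9.65 after siCtrl (0.43 ± 0.26, adjusted p = 0.405). NKD1 differed by 0.46 ± 0.32 (adjusted p = 0.469) and NOTUM, a secreted Wnt deacylase, by 0.57 ± 0.23 (adjusted p = 0.168). For each of the 3 genes all si-WT arrays lay above all siCtrl arrays, and si-mut replicate 1 and si-both replicate 1 differed from their own groups, which widens the shared estimate of spread. In a fit of the si-WT and siCtrl arrays alone the adjusted p was 0.01 for AXIN2, 3.26e-03 for NKD1 and 1.59e-03 for NOTUM, and the list then held 7 higher and 5 lower calls. Other targets not called in the fit of all 12 arrays lay on either side, also without overlap. SP5 differed by -0.49 ± 0.21 (adjusted p = 0.2) and RNF43 by -0.10 (adjusted p = 0.481), whereas DKK1 differed by 0.44 ± 0.25 (adjusted p = 0.364).

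Members that passed the test moved both ways. CCND1, cyclin D1, read 10.37, 10.35 and 10.30 after si-WT and 9.91, 9.91 and 9.91 after siCtrl (+0.43 ± 0.07, adjusted p = 1.94e-03), and TBX3 rose by 0.52. DKK4, a secreted Wnt inhibitor, had 7.06, 7.01 and 7.04 after si-WT and 7.61, 7.61 and 7.69 after siCtrl (-0.60 ± 0.12, adjusted p = 6.82e-03). APCDD1, another inhibitor, fell by 0.62 and GLUL, glutamine synthetase, the pericentral Wnt target of liver, by 0.28 (adjusted p = 4.37e-02, kept in none of the 6 settings that leave out 1 of its arrays). Among 46 Wnt ligands, receptors and transducers 6 rose (13%) and 2 fell (4.35%), against 5.2% and 4.97% of all genes. Without siCtrl replicate 1 there were 3 higher calls. Frizzled receptors had the largest rises. FZD6 read 8.33, 8.47 and 8.29 after si-WT and 7.65, 7.53 and 7.42 after siCtrl (+0.83 ± 0.08, adjusted p = 4.91e-05), FZD4 rose by 0.65 and FZD5 by 0.48. Of 2 parts of the destruction complex, APC rose by 0.36 and AXIN1 fell by 0.35.

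Growth machinery held few calls, mostly higher in the mitosis and replication lists. Of 44 mitosis and spindle genes tested 4 rose and 0 fell (median 0.11), and 34 of the 44 differences were positive. Without si-WT replicate 3 the count of higher calls was 0. Of 34 replication genes 3 rose and 1 fell (1 and 0 without si-WT replicate 2): CCNE1 and CCNE2, the E cyclins, rose by 0.34 and 0.48, E2F7 by 0.53, and TYMS, thymidylate synthase, fell by 0.32. In both lists the share of higher calls was above that of all genes, although most differences of the replication list were negative. The list of cell cycle inhibitors and cyclins held 3 higher calls (CCND1, CCNE1 and CCNE2) and 1 lower call (CCNG1). Without si-WT replicate 2 it held 1 and 0. Among 45 cytosolic ribosomal protein genes 0 passed the test (median -0.07), and among 36 ribosome biogenesis genes 0 rose and 1 fell. Of 37 interferon-induced genes tested 1 rose (SAMD9, by 0.65) and 2 fell (USP18 by 0.68 and IFI35 by 0.53), a list that also holds genes induced by double-stranded RNA. Acute phase and NF-kappaB genes gave 2 higher (0 without si-WT replicate 2) and 7 lower calls among 34. LEAP2, a liver antimicrobial peptide named after its values were seen, fell by 1.31 (adjusted p = 1.25e-04). CCL20, a chemokine, fell by 0.86 and IL1RN by 0.70, and IL18 rose by 0.97.

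Genes outside these groups held some of the largest changes. Higher were GPR83 (+1.47) and GALR2 (+1.43), both G protein-coupled receptors of neuropeptides, RIPPLY3 (+1.46), a transcriptional repressor, ZNF385A (+1.43), a p53-binding zinc finger protein, EIF5A2 (+1.28), a translation factor, and ARRDC4 (+1.24), an arrestin relative that limits glucose uptake. For ARRDC4 the arrays read 8.15, 8.18 and 8.29 after si-WT, against 7.05, 6.90 and 6.95 after siCtrl (SE 0.11, adjusted p = 1.48e-05). The related TXNIP and ARRDC3, chosen after their values were seen, rose by 0.87 and 0.82. Lower were UNC93A (-1.54), FREM1 (-1.51), a basement membrane protein, TRIM15 (-1.29), PUS10 (-1.25), a pseudouridine synthase, SMLR1 (-1.04) and ANXA6 (-1.03), a membrane-binding annexin. HULC, a long non-coding RNA abundant in liver tumours, fell by 0.76. Of the circadian genes BMAL1 and DBP rose by 0.50 and 0.52 while PER2, a repressor of the clock, fell by 0.64.

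The precursors of 4 well-known microRNAs were higher after si-WT, in values chosen after they were seen. They were among 13 higher (1.21%) and 9 lower (0.84%) calls of 1072 microRNA genes tested. These shares are below the 5.2% and 4.97% of all genes, which were not matched for level. MIR122, which holds the main microRNA of hepatocytes and was also chosen after its values were seen, fell by 0.40. The probe sets read the precursor or its host transcript and not the mature form. Mature sequences are shown because their seeds (bases 2 to 8, in capitals) define what each could bind, and no seed is shared among the sequences shown (RefSeq, GRCh38.p14).
hsa-miR-21-5p: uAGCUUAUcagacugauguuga
hsa-miR-221-3p: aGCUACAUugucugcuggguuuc
hsa-miR-27b-3p: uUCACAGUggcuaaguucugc
hsa-miR-24-3p: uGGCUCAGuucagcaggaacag

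MIR21, the most studied microRNA of tumours and an AP-1 responsive gene, read 9.29, 9.37 and 9.36 after si-WT and 8.58, 8.44 and 8.66 after siCtrl (+0.78 ± 0.16, adjusted p = 6.33e-03). MIR221 rose by 0.90 (adjusted p = 1.18e-03), MIR27B by 0.63 (adjusted p = 4.78e-04) and MIR24-2 by 0.56 (adjusted p = 9.27e-03). Groups did not overlap for any of the 4. Of the 22 calls 10 held whichever of the 6 arrays was left out.

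Short sequences bound by liver factors were counted in the promoters of the strongly changed genes. This count is a description only: 7 motifs were kept from a wider set after the counts had been seen, the windows are the 250 bases before the start on both strands, and a gene can have several, partly overlapping promoters. The reference table held 14884 promoters of 10749 of the tested genes, 8085 genes having 1 promoter and the others 2 to 10. The HNF4 core CAAAGT was in 16 of 47 promoters of genes lower by at least 2-fold (34%), from 14 genes, against 8.36% of all promoters. C/EBP's TTGCNNAA was in 12 of these 47 (25.5%, 9 genes), against 7.34% of all, and the HNF1 sequence GTTAAT in 8 (17%, 8 genes), against 4.67%. GSTA1 and GSTA2, whose promoters are 97.2% identical, both count in each of these 3 sets and in that of TCF and LEF below. The GC box GGGCGG ran the other way, with 25.5% of the 47 and 55.5% of all promoters. Among 39 promoters of genes higher by at least 2-fold, TEAD's GGAATG was in 8 (20.5%, against 10.4% of all) and the AP-1 site TGANTCA in 5 (12.8%, against 5.42%). Among the 47 promoters of genes lower by at least 2-fold, TEAD's sequence was in 5 (10.6%) and the AP-1 site in 4 (8.51%). The TCF and LEF sequence ATCAAAG, which overlaps the HNF4 core by part of its letters, was in 5 of the 47 promoters of genes lower by at least 2-fold (10.6%), in 1.09% of promoters of all higher genes, 2.2% of those of all lower genes and 1.67% of all promoters. Across the full sets of called genes the shares lay nearer the general ones, at 11.3% of 817 lower promoters for the HNF4 core and 11.3% of 914 higher promoters for the TEAD hexamer.

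The promoters of PLG and C6 are shown as examples among the genes lower by at least 2-fold (RefSeq, GRCh38.p14, 200 bases before the start, motif in capitals): PLG at chr6:160702044-160702243, plus strand, with the HNF1 sequence read on the opposite strand from position -46, and C6 at chr5:41261470-41261669, minus strand, with the C/EBP sequence on the opposite strand from position -159.
PLG: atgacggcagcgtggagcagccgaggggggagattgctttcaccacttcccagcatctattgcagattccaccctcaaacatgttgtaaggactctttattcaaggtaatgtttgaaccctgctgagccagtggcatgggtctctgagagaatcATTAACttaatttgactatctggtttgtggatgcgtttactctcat
C6: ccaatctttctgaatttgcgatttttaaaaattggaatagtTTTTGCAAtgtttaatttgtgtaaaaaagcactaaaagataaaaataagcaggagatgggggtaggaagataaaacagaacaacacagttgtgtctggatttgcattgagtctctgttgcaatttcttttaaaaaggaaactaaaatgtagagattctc

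The full-length form was also targeted on top of the shortened form, in si-both against si-mut, 6 arrays that share none with the comparison above. In that background 3297 genes (22.2%) were called, 1575 higher (10.6%) and 1722 lower (11.6%). Of the 774 genes higher after si-WT, 176 were also higher in si-both than in si-mut (22.7% of the 774 and 11.2% of the 1575), and 168 were lower (21.7%). Of the 739 lower genes 211 were also lower (28.6% of the 739 and 12.3% of the 1722), and 134 were higher (18.1%). The 2 sets of changes correlated at r = 0.043 across all genes and 0.049 across the 1513 called genes, which are descriptions across genes, and genes are not independent replicates. The difference between the 2 effects, tested as the departure from additivity, was called for 2439 of all genes (16.4%, with 7.6% positive and 8.79% negative), for 438 of the 774 (56.6%) and for 406 of the 739 (54.9%). The departure contains the si-WT minus siCtrl difference by which these genes were called, so the last 2 shares cannot be read against the 16.4%. The labels name different siRNAs for si-both and si-WT, so the siRNA and the background cannot be told apart here.

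Some genes rose or fell alike in both backgrounds. FLRT2 read 7.30, 7.64 and 7.52 in si-both, against 5.60, 6.11 and 5.97 in si-mut, a difference of 1.59 beside 1.77 after si-WT. THBS1 differed by 1.12 beside 1.18, BAMBI by 1.19 beside 1.23 and FZD6 by 1.06 beside 0.83, and for none of these 4 was the departure called. EPO fell by 0.96 beside 1.11, CP by 1.09 beside 1.05 and IL1RN by 0.72 beside 0.70. KITLG rose more in the second background, with 8.14, 8.15 and 8.15 in si-both against 5.98, 6.04 and 6.13 in si-mut (+2.10, departure 1.43 ± 0.13, adjusted p = 1.30e-05). TINAG, a basement membrane protein, fell by 2.26 there and by 0.96 after si-WT.

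Other genes turned over. GSTA1 had 12.94, 12.60 and 12.91 in si-both and 10.95, 10.79 and 10.35 in si-mut, a rise of 2.11 where the si-WT difference was -2.26. CES1 rose by 2.04 and OTC by 1.88, and AADAC read 7.99, 8.02 and 8.58 in si-both, against 5.34, 5.53 and 5.37 in si-mut. Of the genes higher after si-WT, AXL read 5.79, 5.93 and 5.74 in si-both, against 6.96, 7.31 and 7.36 in si-mut (-1.39 ± 0.14), and ESAM fell by 1.54. ANKRD1 was level in that background (0.00 ± 0.16, adjusted p = 0.994), a departure of -2.02 ± 0.23 (adjusted p = 6.75e-05).

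**Figure D5:**
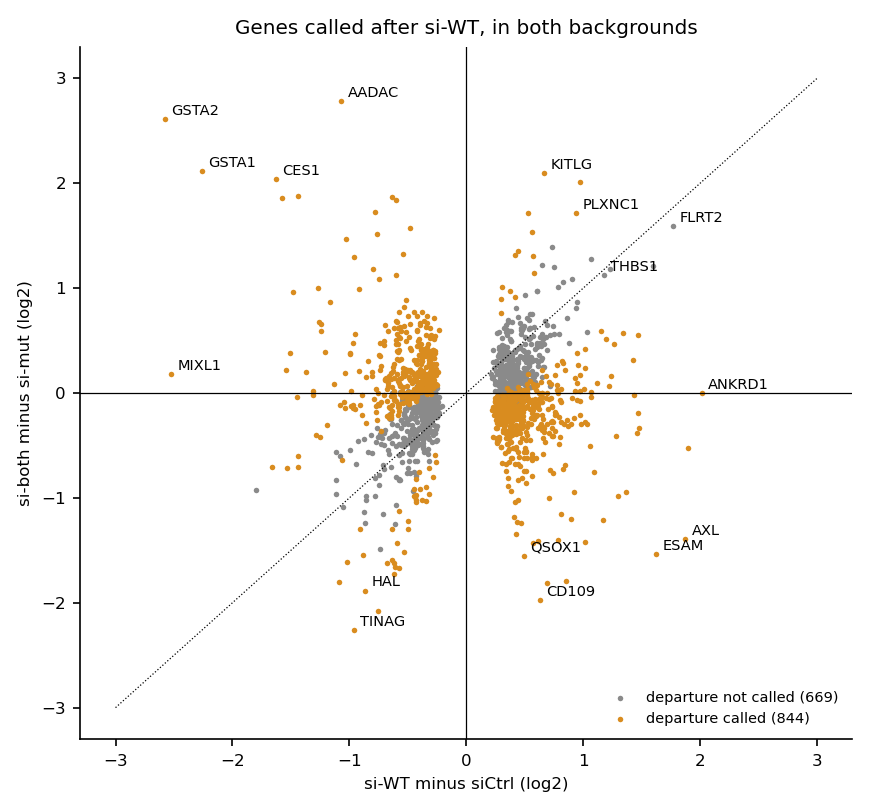
The 1513 called genes by their log2 change si-WT minus siCtrl (x axis) and si-both minus si-mut (y axis), with a dotted line where the 2 are equal. Orange marks the 844 genes whose departure from additivity was called and grey the other 669; GSTA1, CES1 and AADAC lie upper left and AXL, ESAM and CD109 lower right.

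In si-WT against si-mut, which shares the si-WT arrays with the first comparison, 4611 genes (31%) were called, 2530 higher (17%) and 2081 lower (14%). The 2 comparisons are therefore not independent, and their values are given side by side. GSTA1 differed by -4.77 between si-WT and si-mut and by -2.26 between si-WT and siCtrl, and THBS1 by 2.62 and 1.18. HAL differed by -5.19 and -0.87. The Wnt targets LGR5, NKD1 and AXIN2 were higher after si-WT than after si-mut, by 4.46, 3.98 and 3.89 log2 units, beside -0.03, 0.46 and 0.43 (not called) against siCtrl. Of the mitosis and spindle genes 38 of 44 were higher after si-WT than after si-mut, and of the ribosome biogenesis genes 35 of 36.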

How the data were processed

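RNA of HepG2 cells was extracted with Trizol and labelled after the Ambion WT Expression Kit, per the labels' protocols. The values the authors deposited are log2 intensities, 1 per probe set. The submitters' processing notes name RMA and Affymetrix Expression Console 1.1. RMA subtracts background, quantile-normalizes and summarises probes, and it can compress differences of dim genes. Of 53617 probe sets 16098 carried 1 gene symbol in the annotation used here, giving 14884 genes, 779 of them with several probe sets, of which that with the highest mean over the 12 arrays was kept. Precision is limited by having 3 arrays a group.

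A model with 4 group means was fitted to all 12 arrays with limma 3.58.1 in R 4.3.3 (lmFit, eBayes, two-sided, 8 residual degrees of freedom), with Benjamini-Hochberg adjustment over all genes in each contrast and a threshold of 0.05. The departure from additivity is (si-both minus si-mut) minus (si-WT minus siCtrl). Tables and figures were made with pandas 2.3.3 and matplotlib 3.10.9 in Python 3.11.15. Tested on simulated data for si-WT against siCtrl with 14884 genes, the fit recovered 76.1% of 67 genes changed by 0.5 log2 units, 97% of 67 changed by 1 and 100% of 66 changed by 2. Of the 194 calls on the simulated arrays 12 were false.

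The gene lists and the rule for named genes were chosen with earlier results of these data known. Leaving out symbols of open reading frames, non-coding RNA families and names ending in P and a digit, the rule named 291 genes: the 24 largest changes each way among called genes without overlap, the 10 smallest adjusted p and the 10 highest levels each way, up to 6 called members per list (and up to 2 further where fewer than 2 were called), the 8 each way by adjusted p of the departure and by size in si-both against si-mut among those changed alike, and a fixed set of Wnt genes. Same-numbered si-WT and siCtrl arrays deviated together with correlations of 0.121, 0.004 and 0.189, and differently numbered ones with -0.21 to 0.095. The labels do not say whether a number marks a shared batch, and the main fit did not pair the arrays by it. Alternatives covered normalization, dim-gene filters, probe set choice, the prior, array weights, the arrays fitted, a replicate block and leaving out each array. Promoter and microRNA sequences came from RefSeq tables of GRCh38.p14.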

Additional observations from a re-analysis of the deposited data

Results flagged for a closer look

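For the genes below the si-both minus si-mut difference was unlike the si-WT minus siCtrl difference. The test was the departure from additivity (limma, Benjamini-Hochberg adjusted over all genes). It is given as si-both minus si-mut less si-WT minus siCtrl on the log2 scale. The labels name different siRNAs for si-both and si-WT, so the siRNA and the background cannot be told apart. The genes were picked by this same test. They are the 8 in each direction of the si-WT change with the smallest adjusted p among genes called after si-WT and eligible under the naming rule. The adjusted p ranged from 1.701e-07 for AADAC to 4.578e-06 for SQOR.

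Genes lower after si-WT and higher in si-both than in si-mut had positive departures. GSTA2 departed by 5.19, GSTA1 by 4.38, AADAC by 3.85 and CES1 by 3.67, all enzymes of detoxification or ester cleavage. SNAP25-AS1, an antisense RNA that cannot be told from its partner without strand, departed by 3.43. C6 departed by 2.44, HULC by 2.28 and PRLR, the prolactin receptor, by 1.91.

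Genes higher after si-WT and lower in si-both than in si-mut had negative departures. AXL departed by -3.26, CD109, a surface protein that binds TGF-beta, by -2.6, TCP11L2 by -2.38 and QSOX1, which forms disulfide bonds in secreted proteins, by -2.04. CSGALNACT2 departed by -1.81, ADAM9, a membrane protease, by -1.71, CYTOR, a long non-coding RNA, by -1.47 and SQOR, which oxidises sulfide in mitochondria, by -1.32.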

How the results depend on the processing

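Leaving out each of the 12 arrays in turn gave 917 to 1616 calls in si-WT against siCtrl (452 to 825 higher, 459 to 804 lower), 2590 to 3371 in si-both against si-mut (1193 to 1535 higher, 1343 to 1856 lower), 1912 to 2589 for the departure from additivity (870 to 1130 higher, 1027 to 1459 lower) and 3983 to 4754 in si-WT against si-mut (2148 to 2604 higher, 1808 to 2150 lower). In si-WT against siCtrl the higher calls moved by over 1.5 times without siCtrl replicate 1 (479), siCtrl replicate 2 (491), si-WT replicate 2 (452) or si-WT replicate 3 (467), and the lower calls without siCtrl replicate 2 (459), siCtrl replicate 3 (490), si-WT replicate 2 (465) or si-WT replicate 3 (490). The other settings gave 1344 to 2087 calls there. Of 6942 values of the 291 named genes under the alternatives, 384 lost the call, 28 gained it and 8 changed sign. Those 8 belong to 4 genes, APOA1, LGR5, MYC and TNRC6B, of which 0 were called in the main comparison. Of the genes given above as changed after si-WT, AARS1, ACOT2, APC, ATF6, CCN2, CCNE1, CCNE2, CCNG1, DBP, EBP, EDA2R, EDN1, EPCAM, F7, FGB, FGFR2, FN1, FSTL3, GLUL, HMOX1, HSD17B7, IL18, JAM3, KRT80, NDRG1, NEU1, PGK1, PNPLA2, PPL, PSPH, SMAD7, TYMS, VCAN and VEGFA lost the call without at least 1 of the 6 si-WT and siCtrl arrays.

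With the replicate number as a block the calls were 1669 in si-WT against siCtrl (866 higher, 803 lower). They were 3523 in si-both against si-mut, 2607 for the departure and 4791 in si-WT against si-mut. Each count was above that of the main fit (1513, 3297, 2439 and 4611). Whether the numbers mark shared batches was not tested. A fit without si-mut replicate 1 and si-both replicate 1, chosen after seeing the data, gave 1564 calls in si-WT against siCtrl.

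One cell line, 1 siRNA per target in the labels and 3 arrays a group limit these values. Dim genes were rarely called, near-identical genes can share signal, and in bulk RNA fewer cells of a type and less RNA per cell cannot be told apart.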
